A study of Homo sapiens with 9 samples.

Results

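The 9 genes described here encode enzymes that make or interconvert non-essential amino acids in human cells. They are ASNS, PYCR1, ALDH18A1, CTH, CBS, GPT2, PCK2, GLUL and ASS1, taken by gene symbol from the 26485 genes listed in the deposited tables. The rule used no measured value, but these members were chosen with earlier results of these data known. Their transcripts were measured by RNA sequencing in MDA-MB-231, an established cell line of triple-negative breast cancer, in 9 libraries. In 3 libraries the cells stably expressed a control nonspecific (NS) shRNA, in 3 they expressed ASAH1 shRNA #1, and in 3 they expressed ASAH1 shRNA #2. An shRNA is a short hairpin RNA that lowers the transcript it matches, and ASAH1 is acid ceramidase, which cleaves ceramide into sphingosine and a fatty acid. All cells were grown in DMEM with serum, the control rests on 1 hairpin, and the 3 libraries of a group are described as biological replicates without a statement that they came from separate infections. P-values therefore measure the spread between these libraries.

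Cells can make non-essential amino acids from glucose carbon, glutamine nitrogen and methionine sulfur. Asparagine is made from aspartate, proline from glutamate through a pyrroline intermediate, cysteine from homocysteine and serine by transsulfuration, and alanine from pyruvate. Several of these genes are known targets of ATF4, a transcription factor whose translation increases when eIF2alpha is phosphorylated during amino acid shortage, endoplasmic reticulum stress or mitochondrial stress.

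The hairpin-targeted gene was lower in every knockdown library. ASAH1 fell by 1.76 on the log2 scale with shRNA #1 and by 2.63 with shRNA #2 in limma fits (adjusted p = 9.49e-09 and 5.42e-10), and it was lower with shRNA #2 than with shRNA #1 (log2 ratio -0.88, edgeR adjusted p = 6.82e-08). Reads on genes ran from 23806003 to 49659106 per library. Of the markers of this mesenchymal-like line, VIM, CD44, AXL, CAV1, ANXA1 and MSN had group means from 477 to 2038 CPM (TMM-scaled counts per 1000000 reads), and of 6 luminal markers ESR1, PGR and FOXA1 had group means of at most 0.076 CPM, while GATA3, EPCAM and ERBB3 had group means from 5.10 to 33.6 CPM. Of 8 markers of immune cells, endothelium and fibroblasts, PTPRC, CD3E, LYZ, CDH5 and DCN had group means of at most 0.235 CPM, while CD68, COL1A1 and PECAM1 were detected at group means from 1.55 to 84.8 CPM. In bulk RNA, fewer cells with a transcript and less of it per cell cannot be told apart.

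On hg38, the annotated genes lie at chr7:97851677-97872542 on the minus strand for ASNS (13 exons in the canonical transcript), chr17:81932384-81942412, minus, for PYCR1 (7 exons), chr10:95605941-95656711, minus, for ALDH18A1 (18 exons), chr1:70411218-70439851, plus, for CTH (12 exons) and chr21:43053191-43076943, minus, for CBS (17 exons). GPT2 lies at chr16:46884362-46931289, plus (12 exons), PCK2 at chr14:24094053-24110598, plus (10 exons), GLUL at chr1:182378098-182392206, minus (7 exons), and ASS1 at chr9:130444961-130501274, plus (15 exons). Values per gene are sums over its exons.

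RefSeq promoter windows on GRCh38.p14, from 250 bases before to 50 bases after an annotated start, were matched by symbol for 7 of the 9 members, in 12 windows, and PYCR1 and GPT2 had no entry. They were searched on both strands for the core of the amino acid response element, TGATGNAA, at which ATF4 is known to bind together with a C/EBP partner. The core was in 3.62% of all 35116 RefSeq windows of this length. Among the members it was in 1 window, 1 of the 2 of ASNS, at -68 to -61 from the start. The other 6 members with a window did not hold these letters in it. Also searched were the E-box CACGTG (7.26% of all windows), found in ALDH18A1 and ASS1, the antioxidant response element TGACNNNGC (13.35%), found in CBS, and the GC box GGGCGG (44.95%), found in 6 members. Per gene rather than per window, the shares were 4.46% for the core, and 8.77%, 16.06% and 48.3% for the others in this order. No match of the first 3 motifs overlapped a match of another motif. The windows below belong to the 3 members with the widest spread of levels in these libraries. ASNS and ASS1 have 2 windows each, and the 1 printed holds the marked motif, while the other holds neither the core nor the E-box. The printed windows run 5′ to 3′ along the gene, with the response element core or the E-box in capitals where present. They lie at chr7:97872359-97872658 (minus strand), chr1:70411018-70411317 (plus strand) and chr9:130444711-130445010 (plus strand).
ASNS: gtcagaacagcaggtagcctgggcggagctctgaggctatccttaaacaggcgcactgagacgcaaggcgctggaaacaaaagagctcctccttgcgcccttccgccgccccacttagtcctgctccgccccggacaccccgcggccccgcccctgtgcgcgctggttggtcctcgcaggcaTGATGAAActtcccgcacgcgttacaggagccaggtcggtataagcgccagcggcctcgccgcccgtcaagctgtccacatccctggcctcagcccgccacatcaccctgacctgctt
CTH: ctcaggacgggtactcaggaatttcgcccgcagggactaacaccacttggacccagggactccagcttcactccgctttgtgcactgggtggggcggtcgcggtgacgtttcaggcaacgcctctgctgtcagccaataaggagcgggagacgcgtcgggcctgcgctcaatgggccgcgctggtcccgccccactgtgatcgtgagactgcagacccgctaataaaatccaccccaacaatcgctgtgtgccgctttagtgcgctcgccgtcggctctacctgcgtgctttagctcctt
ASS1: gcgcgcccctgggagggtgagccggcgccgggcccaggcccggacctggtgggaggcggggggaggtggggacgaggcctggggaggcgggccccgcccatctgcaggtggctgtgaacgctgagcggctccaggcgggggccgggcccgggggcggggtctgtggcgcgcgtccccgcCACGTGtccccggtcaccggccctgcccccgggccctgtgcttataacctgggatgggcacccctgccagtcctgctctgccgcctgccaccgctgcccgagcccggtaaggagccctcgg

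ASNS and CTH rose most of the 8 members that could be tested, between 5- and 9-fold with either hairpin. PYCR1, GPT2 and PCK2 also rose with both, ASS1 rose 1.25-fold with shRNA #1 and 4.26-fold with shRNA #2, GLUL rose slightly with shRNA #2, and ALDH18A1 fell slightly with shRNA #2. CBS had too few reads to compare. The values below are normalized counts, that is reads divided by a size factor set by the authors separately in the table of each hairpin, so the same NS shRNA libraries have different values in the 2 tables, and fold changes were fitted by limma on log2(normalized count + 1).

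ASNS, asparagine synthetase, transfers the amide nitrogen of glutamine to aspartate. In the table of shRNA #1 it had 1484, 1423 and 1461 normalized counts in the NS shRNA libraries and 7715, 7765 and 7876 in the shRNA #1 libraries. In the table of shRNA #2 the NS shRNA libraries had 1601, 1545 and 1575 and the shRNA #2 libraries 8765, 9229 and 9016. The groups lay far apart in both tables, and the replicates of each were close together. ASNS rose 5.35-fold with shRNA #1 (log2 2.42 ± 0.04 SE, adjusted p = 1.66e-09) and 5.72-fold with shRNA #2 (log2 2.52 ± 0.05, adjusted p = 5.03e-10). Of 1466 exon windows of 76 bases, the read length, 19 (1.30%) occur exactly elsewhere in hg38.

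CTH, cystathionine gamma-lyase, completes transsulfuration by releasing cysteine from cystathionine, and can also make hydrogen sulfide. Its NS shRNA libraries held 601, 590 and 623 normalized counts against 4113, 4084 and 3984 with shRNA #1. Against shRNA #2 they held 648, 640 and 672, and the shRNA #2 libraries 5209, 5488 and 5610. No hairpin library came near the control level. CTH rose 6.71-fold with shRNA #1 (log2 2.75 ± 0.05 SE, adjusted p = 1.66e-09) and 8.30-fold with shRNA #2 (log2 3.05 ± 0.06, adjusted p = 4.30e-10), the largest fold among the tested members in each comparison.

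CBS, cystathionine beta-synthase, makes the cystathionine that CTH cleaves. It had 0, 2 and 1 reads in the NS shRNA libraries, 0, 3 and 0 with shRNA #1 and 1, 1 and 3 with shRNA #2. All 9 libraries were at or under 3 reads, so CBS entered no test and no fold is given. Of the 1234 windows of 76 bases that lie within single exons of its canonical transcript, 1234 (100%) occur exactly a second time in hg38, at chr21:6444869-6465019. The counting program named in the methods leaves out, by its default, reads that align to more than 1 place. U2AF1, a splicing factor of all cells that was looked up after the CBS values were seen, had 366 of 378 such windows (96.8%) repeated on the same chromosome and held 0 to 7 reads per library. Whether CBS is transcribed in these cells was not tested by these counts. Apart from ASNS and GLUL (0.427%), the other 6 members had 0 windows repeated. Only exact copies of windows within single exons were searched, which for ASS1 were 538 windows. Copies that span exon junctions or differ by a base were not examined.

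**Figure D1:**
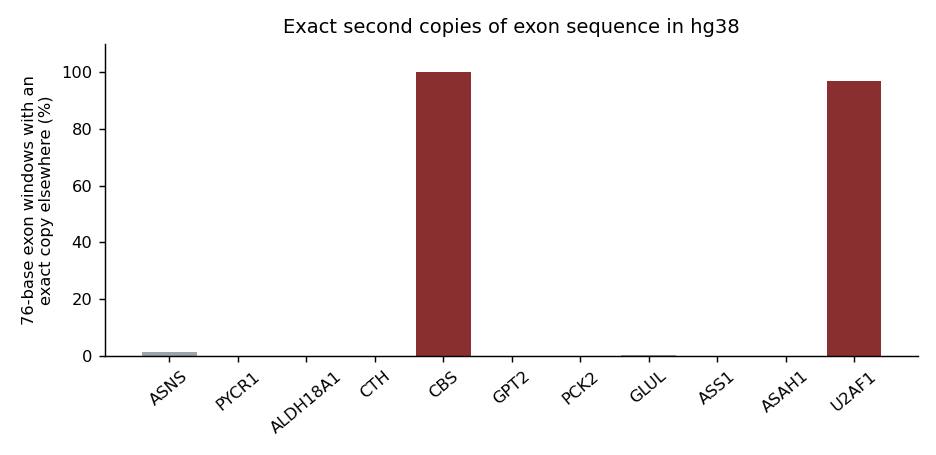
Bars give, for each member, ASAH1 and U2AF1, the percent of 76-base windows within exons of the canonical transcript that occur exactly elsewhere in hg38. CBS stands at 100% and U2AF1 at 96.8%, and all others lie below 2%.

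In proline synthesis, the first and last enzymes differed. ALDH18A1, pyrroline-5-carboxylate synthase, starts the route from glutamate, and PYCR1, the mitochondrial pyrroline-5-carboxylate reductase, ends it. PYCR1 had 3393, 3186 and 3329 normalized counts with NS shRNA and 6314, 6456 and 6553 with shRNA #1, and beside shRNA #2 it had 3661, 3458 and 3590 against 7808, 7526 and 7997. All hairpin libraries were above all controls. The rise was 1.95-fold with shRNA #1 (log2 0.96 ± 0.05 SE, adjusted p = 1.87e-07) and 2.18-fold with shRNA #2 (log2 1.12 ± 0.05, adjusted p = 5.95e-08).

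ALDH18A1 had 4732, 4682 and 4860 normalized counts with NS shRNA and 4910, 4829 and 4865 with shRNA #1, and these groups overlapped. Its log2 difference with shRNA #1 was 0.03 (95% interval -0.06 to 0.13, adjusted p = 0.511). In the table of shRNA #2 it had 5106, 5083 and 5240 with NS shRNA and 4754, 4689 and 4498 with shRNA #2, which did not overlap. With shRNA #2 it fell by 0.15 on the log2 scale (95% interval -0.26 to -0.03, adjusted p = 0.0268). That call was lost when NS shRNA replicate 2 (adjusted p = 0.0654), NS shRNA replicate 3 (0.0738) or shRNA #2 replicate 3 (0.0952) was left out.

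GPT2 and PCK2 are mitochondrial enzymes around pyruvate. GPT2, alanine aminotransferase 2, exchanges the amino group between glutamate and pyruvate. It had 1196, 1164 and 1083 normalized counts with NS shRNA and 2006, 1965 and 1987 with shRNA #1, and 1291, 1263 and 1168 against 2466, 2303 and 2371 in the table of shRNA #2. The hairpin libraries all lay above the controls. GPT2 rose 1.73-fold with shRNA #1 (log2 0.79 ± 0.06 SE, adjusted p = 2.04e-06) and 1.92-fold with shRNA #2 (log2 0.94 ± 0.06, adjusted p = 6.43e-07).

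PCK2, mitochondrial phosphoenolpyruvate carboxykinase, turns oxaloacetate into phosphoenolpyruvate. With NS shRNA it had 1009, 1006 and 883 normalized counts, and with shRNA #1 it had 2372, 2451 and 2686. The other table gave 1089, 1092 and 952 for NS shRNA and 1993, 1670 and 1997 for shRNA #2. Its replicates were wider apart than those of ASNS or CTH, with replicate 3 of NS shRNA and replicate 2 of shRNA #2 lowest in their groups, but hairpin and control libraries did not overlap. PCK2 rose 2.59-fold with shRNA #1 (log2 1.37 ± 0.07 SE, adjusted p = 3.50e-07) and 1.80-fold with shRNA #2 (log2 0.85 ± 0.09, adjusted p = 1.16e-05).

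GLUL, glutamine synthetase, joins ammonia to glutamate. It had 3512, 3548 and 3723 normalized counts with NS shRNA and 3562, 3483 and 3554 with shRNA #1, groups that overlapped. The log2 difference with shRNA #1 was -0.02 (95% interval -0.13 to 0.08, adjusted p = 0.657). With shRNA #2 the libraries held 5041, 4915 and 4893 against 3790, 3851 and 4014 with NS shRNA, without overlap. GLUL rose 1.27-fold with shRNA #2 (log2 0.35 ± 0.05 SE, adjusted p = 0.000153).

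ASS1, argininosuccinate synthase, joins citrulline to aspartate on the way to arginine. It had 942, 912 and 815 normalized counts with NS shRNA and 1039, 1089 and 1196 with shRNA #1, a small gap between groups. Its rise with shRNA #1 was 1.25-fold (log2 0.32 ± 0.08 SE, adjusted p = 0.00518). In the table of shRNA #2 the NS shRNA libraries had 1016, 990 and 879, and the shRNA #2 libraries had 4061, 4070 and 4159. ASS1 rose 4.26-fold with shRNA #2 (log2 2.09 ± 0.07, adjusted p = 7.11e-09).

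**Figure D2:**
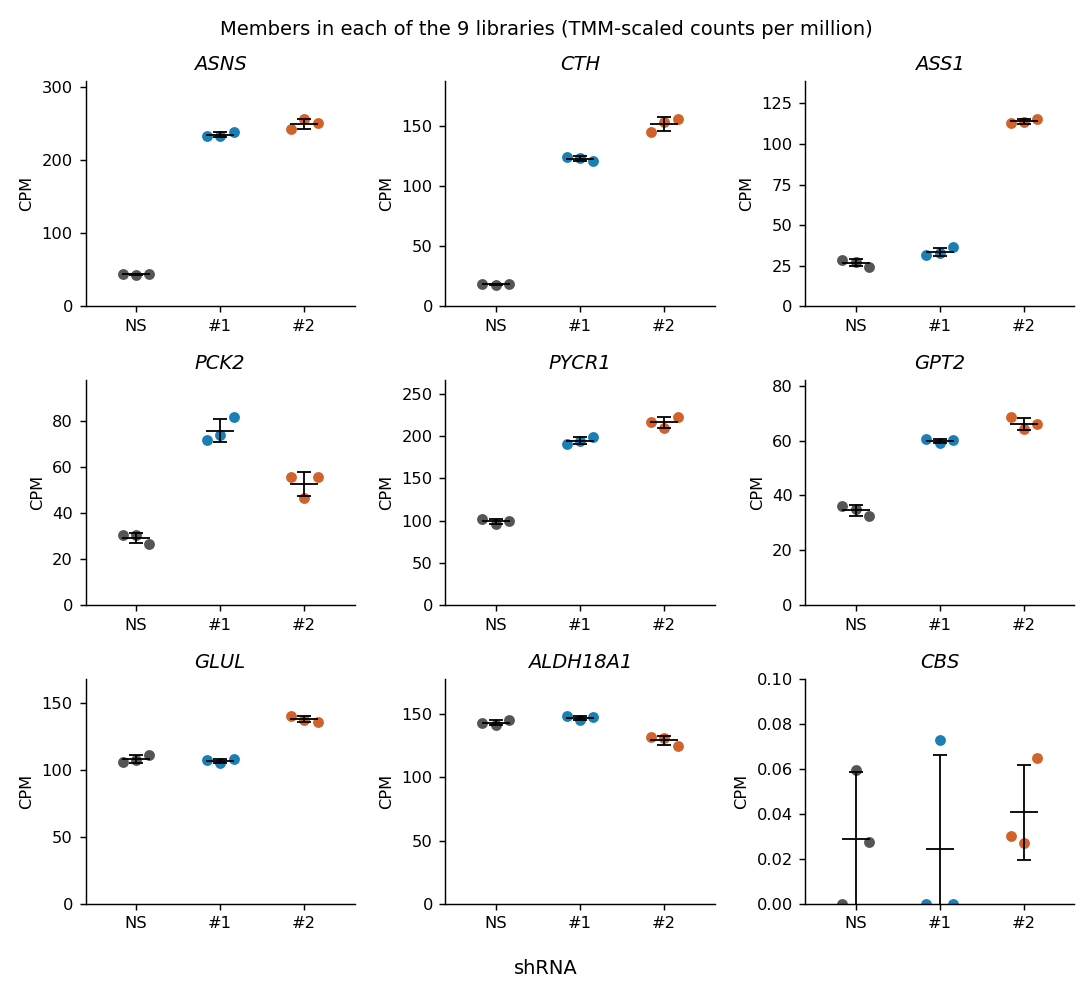
Each panel shows 1 member on a linear axis of CPM (reads recovered from the tables, scaled by TMM over all 9 libraries), with a point per library and the mean ± SD of the 3 libraries of a group. ASNS and CTH stand high with both hairpins, ASS1 and GLUL are separated mainly with shRNA #2, and the axis of CBS ends at 0.10 CPM.

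In counts, 6 of the 8 tested members were higher with shRNA #1 and 0 lower. Of all 14341 genes tested in that comparison, 66.1% passed at an adjusted p below 0.05, 32.8% higher and 33.3% lower. With shRNA #2, 7 of 8 were higher and 1, ALDH18A1, lower, against 66.9% of 14250 genes that passed, 33.5% higher and 33.4% lower. The median log2 fold change of the 8 members was 0.88 with shRNA #1 and 1.03 with shRNA #2, where the medians of all tested genes were 0.001 and 0.01. Both comparisons use the same 3 NS shRNA libraries, and the members were chosen with earlier results of these data known. With 3 libraries against 3, an exact permutation test of a single gene cannot give a p below 0.1, so the tests rest on the spread estimated across genes.

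**Figure D3:**
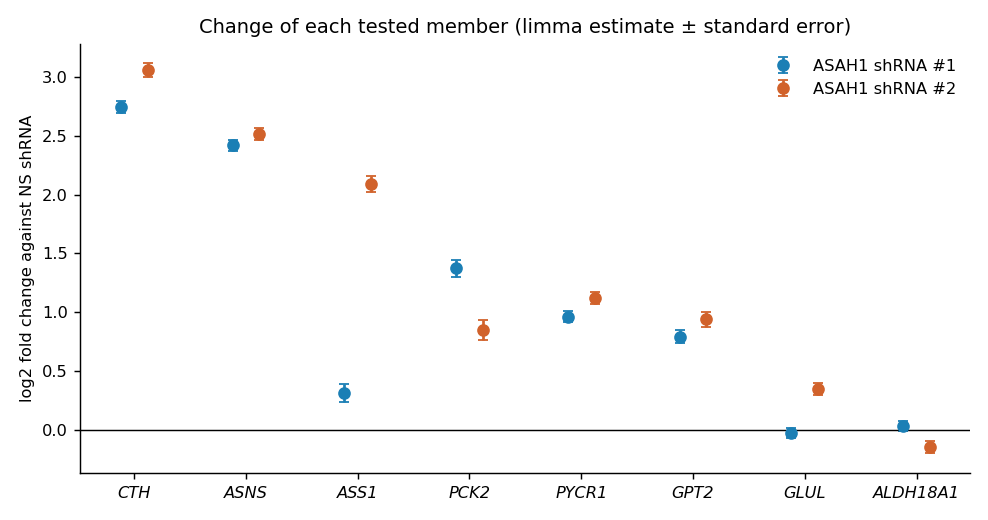
Points give the log2 fold change of each tested member against NS shRNA, blue for ASAH1 shRNA #1 and orange for ASAH1 shRNA #2, and bars the standard error. CTH and ASNS lie above 2.4 with both hairpins, ASS1 lies at 0.32 and 2.09, and ALDH18A1 lies at 0.03 and -0.15.

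The hairpins were then compared directly, by edgeR with TMM on the reads of all 9 libraries, in a contrast that does not use the NS shRNA level. Of the 8 members, 5 were higher and 2 lower with shRNA #2 than with shRNA #1, where 63.3% of 14714 genes passed, 31.1% higher and 32.1% lower. ASS1 had 31.4, 32.8 and 36.3 CPM with shRNA #1 and 113, 114 and 116 CPM with shRNA #2, a ratio of 3.40 (log2 1.77, 95% interval 1.61 to 1.92, adjusted p = 3.74e-09). This was the widest difference between the hairpins among the members.

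PCK2 went the other way, with 71.7, 73.9 and 81.4 CPM under shRNA #1 and 55.4, 46.6 and 55.5 CPM under shRNA #2 (log2 ratio -0.53, 95% interval -0.71 to -0.35, adjusted p = 0.000171). GLUL was higher with shRNA #2, at 140, 137 and 136 CPM against 108, 105 and 108 CPM (log2 ratio 0.37, 95% interval 0.27 to 0.46, adjusted p = 2.22e-05). CTH, at 145, 153 and 156 CPM with shRNA #2 against 124, 123 and 121 CPM with shRNA #1, was also higher (log2 ratio 0.30, 95% interval 0.20 to 0.41, adjusted p = 0.000174). The libraries of these members did not overlap between the hairpins. The same held for every other tested member, ASNS included, and the share of all genes without overlap is not given here.

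Smaller differences were found for ALDH18A1 (log2 ratio -0.19, edgeR adjusted p = 0.00279), PYCR1 (0.15, adjusted p = 0.0111) and GPT2 (0.14, adjusted p = 0.0359). Upper quartile scaling in place of TMM left PYCR1 at 0.07 (adjusted p = 0.199) and GPT2 at 0.06 (adjusted p = 0.355), neither of which passed, and GPT2 also lost its call in 5 of the 6 fits that left out a hairpin library, all but shRNA #2 replicate 2 (adjusted p from 0.0606 to 0.118). ASNS did not pass, with 233, 234 and 239 CPM under shRNA #1 and 244, 257 and 251 CPM under shRNA #2 (log2 ratio 0.09, 95% interval -0.0022 to 0.18, adjusted p = 0.0812). DESeq2 on the same reads gave ASNS an adjusted p of 0.0490.

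Set per length, as CPM per kilobase of the canonical transcript, the order of the members' levels differed between the groups. With NS shRNA, PYCR1 (43.8 ± 1.35, SD, n = 3) and ALDH18A1 (42.7 ± 0.621) were highest and their ranges overlapped. ASNS (18.4 ± 0.373) and ASS1 (17.5 ± 1.37) followed, also with overlapping ranges, then GLUL (14.3 ± 0.383), PCK2 (13.3 ± 1.05), and CTH (8.71 ± 0.204) with GPT2 (8.65 ± 0.476), which overlapped. GLUL ran from 14.0 to 14.8 and PCK2 from 12.1 to 14.0, ranges that lay next to each other without overlap. CBS was last at 0.01, but whether it is transcribed was not tested by these counts, as given above.

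With shRNA #1 the level per kilobase was highest for ASNS (98.7 ± 1.26), followed by PYCR1 (85.8 ± 1.73), CTH (58.7 ± 0.859), ALDH18A1 (43.9 ± 0.428), PCK2 (34.7 ± 2.34), ASS1 (21.9 ± 1.63), GPT2 (15.03 ± 0.180) and GLUL (14.1 ± 0.207), and the ranges of these neighbours did not overlap. CTH had moved from the 7th to the 3rd place. With shRNA #2 the order was ASNS (105 ± 2.90), PYCR1 (95.4 ± 2.75), ASS1 (74.4 ± 0.954), CTH (72.4 ± 2.79), ALDH18A1 (38.6 ± 1.12), PCK2 (24.1 ± 2.35), GLUL (18.2 ± 0.277) and GPT2 (16.6 ± 0.541). ASS1 and CTH overlapped there. The places of all members depend on the length used, here that of the canonical transcript. For GLUL it is 7554 bases, where all annotated exons together cover 12638, and for ASNS 2385, where they cover 4896. The order with other lengths was not examined.

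**Figure D4:**
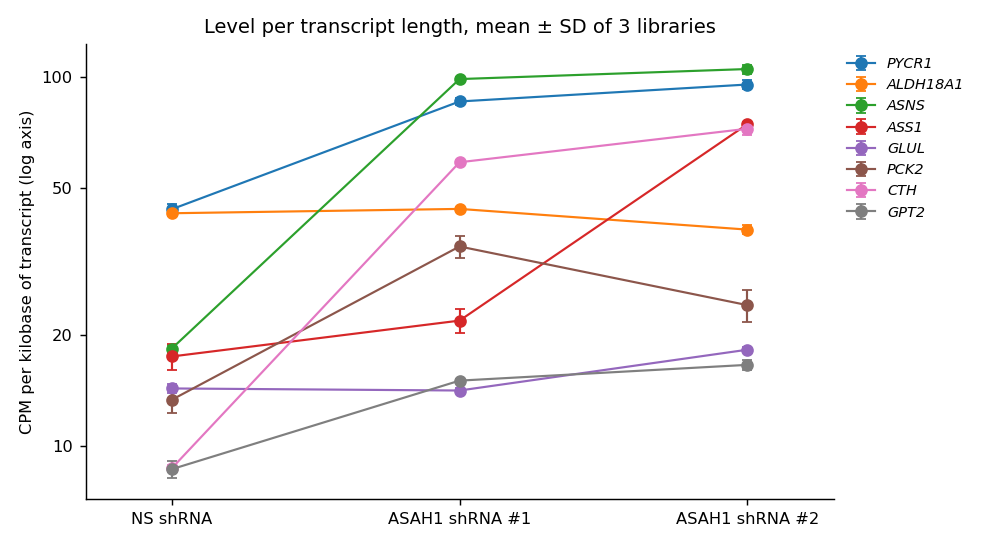
Lines join each member's mean level in CPM per kilobase of canonical transcript (log axis) in the 3 groups, with SD of 3 libraries. ASNS moves from 18.4 to 98.7 and 105, CTH from 8.71 to 58.7 and 72.4, and ASS1 from 17.5 to 21.9 and 74.4, while ALDH18A1 stays between 38.6 and 43.9, and CBS is left out.

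The genes with the pattern most like that of ASNS and CTH, the members with the widest range of group means, were looked up by the root mean square distance of centred log2 CPM over the 9 libraries, among 11631 genes. Nearest to ASNS were SOCS2 (0.13), KLF10 (0.13) and MEX3A (0.15). SOCS2 is a suppressor of cytokine signalling and KLF10 a zinc finger transcription factor. Nearest to CTH were PSG11 (0.17), ASNS itself (0.22) and GADD45A (0.26), a stress-induced growth arrest gene. PSG11 belongs to a family of closely similar pregnancy-specific glycoproteins that can share reads, so its count is uncertain.

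Other genes of the same pathways were taken from 6 lists of 50 enzymes in all. With shRNA #1, 37 could be tested, of which 14 were higher and 14 lower (median log2 fold change -0.0041). With shRNA #2, 38 could be tested, of which 10 were higher and 15 lower (median 0.03). The shares that passed, 28 of 37 and 25 of 38, stand beside the 66.1% and 66.9% of all genes. The members' medians of 0.88 and 1.03 lay above those of these lists. Members and lists were both chosen with earlier results of these data known, and this difference was not tested.

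Around asparagine and aspartate, 4 of 6 enzymes could be tested. GOT1, cytosolic aspartate aminotransferase, had log2 fold changes of 0.65 with shRNA #1 and -0.27 with shRNA #2, and GOT2, its mitochondrial counterpart, had 0.23 and 0.48, all passing. NIT2, an omega-amidase, passed only the comparison with shRNA #1, at -0.15. The asparaginase ASRGL1 did not pass, with 0.66 and 0.54 at group means of at most 0.663 CPM.

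Of the proline and ornithine enzymes, 6 of 9 could be tested. PYCR3, the cytosolic reductase, rose by 0.20 on the log2 scale with shRNA #1 and fell by 0.56 with shRNA #2. OAT, ornithine aminotransferase, which feeds the pyrroline intermediate from ornithine, fell by 0.56 and 0.79. ALDH4A1, which oxidises that intermediate back to glutamate, fell by 0.29 and 0.42. ODC1, ornithine decarboxylase of polyamine synthesis, rose by 1.78 and 1.12, and ARG2, mitochondrial arginase, rose by 0.25 with shRNA #1 and fell by 1.56 with shRNA #2. PRODH, proline dehydrogenase, was near 0 CPM in all groups.

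The methionine cycle and transsulfuration list held 18 genes, of which 14 and 15 were tested. MTRR, which reactivates methionine synthase, rose by 0.72 with shRNA #1 and 0.75 with shRNA #2, and AHCYL1, a relative of adenosylhomocysteinase, fell by 0.62 and 0.79. ETHE1, a mitochondrial persulfide dioxygenase, rose by 0.68 and 0.41. SQOR, which oxidises hydrogen sulfide, had a log2 difference of -0.0041 with shRNA #1, which did not pass, and fell by 1.34 with shRNA #2.

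The 2 subunits of glutamate-cysteine ligase, the step that uses cysteine for glutathione, differed between the hairpins. GCLC had log2 fold changes of -0.21 with shRNA #1 and 0.43 with shRNA #2, and GCLM had -0.51 and 0.43, all passing. Their direct edgeR log2 ratios of shRNA #2 to shRNA #1 were 0.64 and 0.94, both higher with shRNA #2. GSS, glutathione synthetase, had the reverse order, 0.17 and -0.32.

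Of the 6 glutamate, glutamine and alanine enzymes listed beside GLUL and GPT2, 5 could be tested. GLUD1, glutamate dehydrogenase, had small passing log2 fold changes of 0.12 with shRNA #1 and -0.14 with shRNA #2, and GPT, the cytosolic relative of GPT2, was at group means of at most 1.38 CPM and passed only with shRNA #2, at 0.76.

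Around phosphoenolpyruvate and pyruvate, the cytosolic enzyme PCK1 stood at group means from 1.67 to 2.50 CPM and did not pass (log2 fold change -0.36 and 0.25). PC, pyruvate carboxylase, which makes the oxaloacetate that PCK2 uses, fell by 0.51 with shRNA #1 and had a difference of -0.10 with shRNA #2 that did not pass. PKM, pyruvate kinase, fell by 0.75 with shRNA #1 and had 0.02 with shRNA #2, which did not pass.

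In the urea cycle list, all 4 tested genes of 7 passed in both comparisons. ASL, argininosuccinate lyase, the enzyme after ASS1, had log2 fold changes of 0.40 with shRNA #1 and -0.36 with shRNA #2, where ASS1 had 0.32 and 2.09. CPS1, carbamoyl phosphate synthetase, fell by 1.15 and 2.08 from a mean of 4.73 CPM. NAGS, which makes the activator of CPS1, rose by 1.67 and 0.81 from 7.26 CPM, and NOS3, a nitric oxide synthase, had 1.30 and -1.79 at group means from 0.356 to 3.17 CPM.

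**Figure D5:**
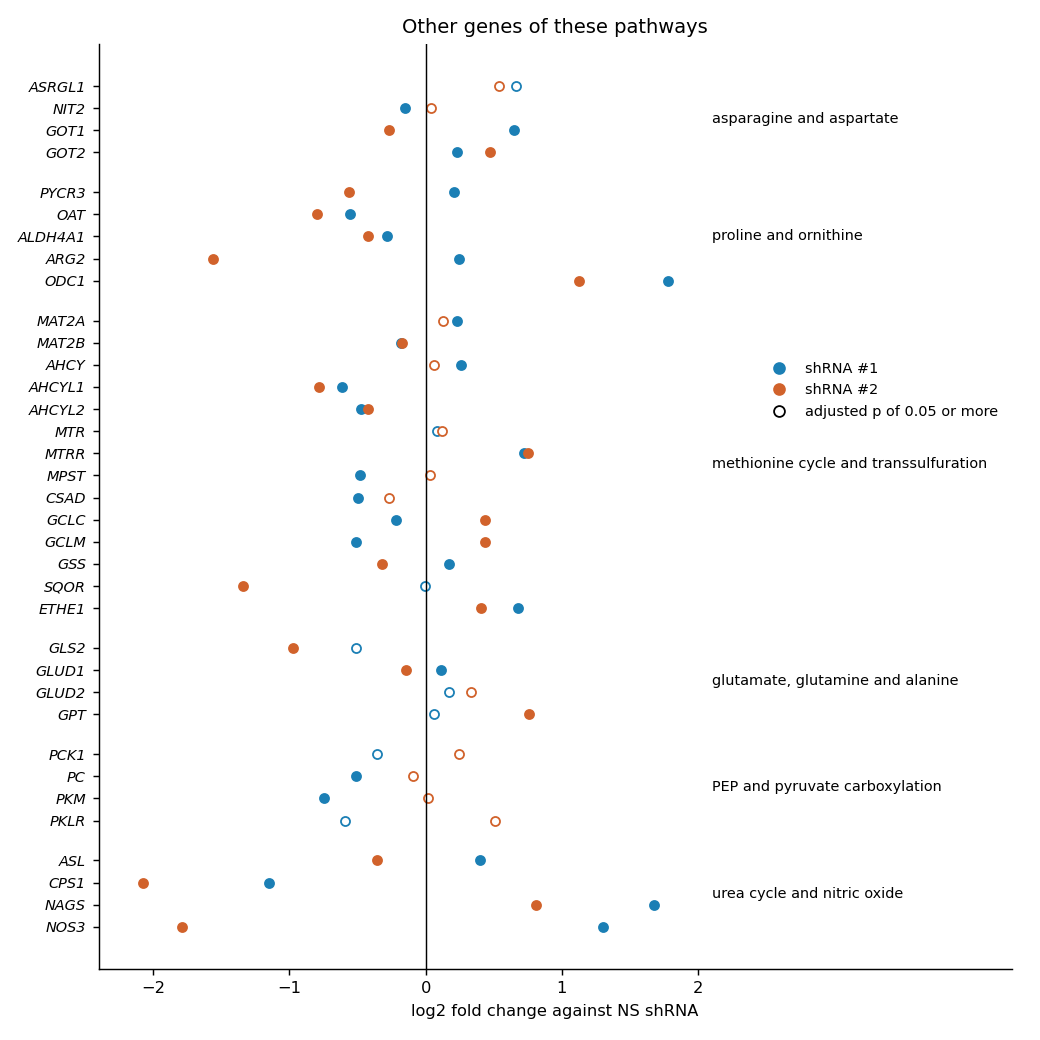
Lines are other pathway genes tested in both comparisons, grouped by list, each with its log2 fold change against NS shRNA for shRNA #1 (blue) and shRNA #2 (orange). Filled points passed limma at an adjusted p below 0.05, and points lie on both sides of 0 in most lists, with ARG2 at 0.25 and -1.56.

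The eIF2alpha kinases and ATF4 with its partners form a list of 11 genes, described because ATF4 is known to act on several members. With shRNA #1, 6 were higher and 1 lower (median log2 fold change 0.60), and with shRNA #2, 8 were higher and 1 lower (median 0.73). Of all genes tested, 32.8% were higher and 33.3% lower with shRNA #1, and 33.5% higher and 33.4% lower with shRNA #2. ATF4 itself rose by 0.60 and 0.82 on the log2 scale. CEBPG, a C/EBP partner of ATF4, rose by 2.11 and 1.86, DDIT3 (CHOP) by 2.47 and 1.16, ATF3 by 3.53 and 2.29, and TRIB3, a pseudokinase, by 1.89 and 1.22. Of the kinases, EIF2AK1, the heme-regulated kinase, fell by 0.68 and 0.55. EIF2AK3 (PERK) had 0.04 with shRNA #1, which did not pass, and rose by 0.69 with shRNA #2. EIF2AK4 (GCN2), the sensor of uncharged tRNA, did not pass (-0.07 and 0.02). The kinase EIF2AK2 and the partners CEBPB and ATF5 enter the counts, but their values are not listed. These values are transcript levels, and phosphorylation of eIF2alpha or the amount of ATF4 protein was not measured here.

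The direct contrast of the hairpins set these regulators beside the members. Of the 11 regulators, 3 were higher and 5 lower with shRNA #2 than with shRNA #1, where 63.3% of all genes passed. DDIT3 (log2 ratio of shRNA #2 to shRNA #1 -1.31), ATF3 (-1.24), TRIB3 (-0.68) and CEBPG (-0.25) were lower, and ATF4 (0.21) was higher. Other regulators that passed this contrast, in either direction, are not listed. Of the members, PCK2 (-0.53) and ALDH18A1 (-0.19) were lower. ASS1 (1.77), GLUL (0.37), CTH (0.30), PYCR1 (0.15) and GPT2 (0.14) were higher. The part of the regulators in the members' values was not tested.

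Beside 3 other groups of amino acid genes, the members' 6 of 8 higher with shRNA #1 and 7 of 8 with shRNA #2 stood as follows. Among all genes tested, the shares higher were 32.8% and 33.5%. Of 12 amino acid transporters, 11 and 12 were higher (median log2 fold change 0.95 and 1.18), with SLC3A2 the largest with shRNA #1 (1.80), SLC7A11 the largest with shRNA #2 (2.03) and SLC1A3 lower with shRNA #1 (-0.87). Of 20 cytosolic aminoacyl-tRNA synthetases, 16 and 18 were higher (medians 0.64 and 0.76), led by YARS1 (1.75 and 1.55), with QARS1 lowest (-0.79 and -0.91). Of 9 serine and folate cycle enzymes, 7 were higher with shRNA #1 (median 0.64), while with shRNA #2 3 of the 8 tested were higher and 2 lower (median 0.05). PSAT1 rose most in that list (1.69 and 2.46), SHMT1 was lowest with shRNA #1 (-0.69) and PHGDH with shRNA #2 (-1.20). No difference between the members and these lists was tested.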

How the data were processed

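RNA from 9 MDA-MB-231 libraries was sequenced as single-end 76-base reads. The labels name both oligo-dT selection and ribosomal depletion. Trimming by the authors used Trimmomatic 0.36, per the labels, alignment to hg38 used STAR 2.7.1a, and HTSeq counted reads on the reverse strand before a DESeq2 1.28 run for each hairpin with NS shRNA (another methods paragraph names Bowtie2, RSEM and edgeR). The deposited signal is a read count divided by a size factor, and the deposited fold changes and p-values were not used. Whole reads were recovered for 100% of values (tolerance 0.02 reads), and NS shRNA reads agreed between the tables, with 0 differences. In one of the tables, 28 date-altered symbols were replaced from the other by line order. All sample columns were matched (0 left over).

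The tools were limma 3.58.1, edgeR 4.0.16 and DESeq2 1.42.0 under R 4.3.3. Pandas 2.3.3 and matplotlib 3.10.9 ran under Python 3.11.15. Each hairpin was set against NS shRNA within its table, using limma (trend on mean level, two-sided) on log2(value + 1), for genes averaging 10 or more, and calls were made at 0.05 after Benjamini-Hochberg adjustment. Fold changes on this scale understate low genes. The hairpins were compared by the quasi-likelihood test of edgeR, with TMM, on reads passing filterByExpr. The scripts were tested on simulated data. The members, lists and alternatives were chosen with earlier results of these data known. All members were named, with ASAH1, passing genes of the pathway and eIF2alpha lists, the extremes of the 3 compared lists, and the 3 nearest genes of the widest 2 members (mean of at least 100 reads). Of the other pathway genes, 2 enter the counts but are not reported here by name. Alternatives were other pseudocounts, filters, scalings and tests, a replicate block and leaving out each library.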

Additional observations from a re-analysis of the deposited data

Results flagged for a closer look

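For 7 of the 8 tested members the effects of the hairpins differed by the direct edgeR test of shRNA #2 against shRNA #1, among 63.3% of all genes that did so. The log2 ratios of shRNA #2 to shRNA #1 were 1.77 for ASS1, 0.37 for GLUL, 0.30 for CTH, 0.15 for PYCR1, 0.14 for GPT2, -0.19 for ALDH18A1 and -0.53 for PCK2. ASAH1 was itself lower with shRNA #2 (log2 ratio -0.88), and its part in these differences was not tested. Groups of 3 libraries were not searched for single outlying libraries.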

How the results depend on the processing

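Of 27 log2 values (9 genes, the 8 tested members and ASAH1, in 3 comparisons), 22 stayed on their side of 0 and of the threshold under every alternative run and 5 did not. The direction of GLUL with shRNA #1 turned, from -0.02 to 0.0012, without NS shRNA replicate 3 (range over left-out libraries -0.041 to 0.0012), and neither value passed. ALDH18A1 with shRNA #2 lost its call in 4 fits (-0.15, adjusted p = 0.134 with the replicate block), GPT2 between the hairpins in 8 of 15 (0.14, adjusted p = 0.0634 with the block), PYCR1 between the hairpins with upper quartile scaling, and ASNS between the hairpins passed by DESeq2. The cause was not tested. Members called ran over all alternatives at 6 with shRNA #1, from 7 to 8 with shRNA #2 and from 5 to 8 between the hairpins.

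The replicate numbers did not pair NS shRNA libraries with hairpin libraries, where the correlation of same-numbered deviations ran from -0.68 to -0.16. Between the hairpins it was 0.06, 0.25 and 0.56 for replicates 1, 2 and 3, so the numbers may pair in part there. Of all 9 pairs, 2 were over 0.1, both between the hairpins. With the replicate block the members called were 6, 7 and 6, the other pathway genes called were 22 and 22, and all genes called were 8237, 8526 and 8726. Depth limits genes near 1 CPM. CBS, at 3 reads or fewer per library, could not be compared, and the part of its exact second copy in hg38 was not tested.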
